A study of Mus musculus with 12 samples.

Results

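In 2 regions of the mouse brain, frontal cortex (FCx) and hippocampus (HP), a group of 8 named miRNAs was followed by miRNA-Seq. Its members lie in introns of genes, most of which encode neuronal, membrane or signalling proteins. They are mmu-miR-383, mmu-miR-490, mmu-miR-488, mmu-miR-153, mmu-miR-139-5p, mmu-miR-149, mmu-miR-326 and mmu-miR-874, given from here on without the prefix of the species. They were taken by name from the count files, without star forms, and all 8 of 8 were found among the 469 miRNA names listed. Each had counts in all 6 libraries. Tissue came from untreated male C57BL/6J mice aged 8 weeks, FCx as cortical tissue from a slice between Bregma -1.5 and -3.5, and HP as the entire hippocampus. Negative values lie behind Bregma, whereas frontal cortex is usually taken in front of it, so FCx stands here for the tissue as labelled. The RNA of 3 mice made up 1 pool per region, and every pool was made into 3 libraries that carried index 3, index 7 or index 11, a short tag joined directly to the 5′ end of the miRNA. Libraries of a region therefore differ by technical steps, the index among them, and the spread between animals is unknown. The counts of the 2 lanes of each library were summed. Total miRNA counts were 391410, 1461732 and 652449 in the FCx libraries with index 3, 7 and 11, and 3206221, 4956117 and 4053518 in the HP libraries, so FCx values rest on fewer counts.

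An intronic miRNA is usually transcribed with its host gene, from whose intron the hairpin is cut, so its expression can be tied to the cells that use the host. The hairpin has a 5p and a 3p arm, and the arm that is loaded into an Argonaute protein finds its target mRNAs mainly through bases 2 to 8, the seed. A shift of the 5′ end by 1 base gives another seed.

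All 8 hairpins lay in an intron of a protein-coding gene and on its strand in the annotation of NCBIM37, the build of the alignments. Intron numbers are those of the longest transcript with an intron there. The hairpin of miR-383 (chr8:39315185-39315258, minus strand) lies in intron 1 of 9 of Sgcz, which encodes zeta-sarcoglycan, a protein of the sarcoglycan complex in the cell membrane. The hairpin of miR-490 (chr6:36371742-36371825, plus strand) lies in intron 2 of 2 of Chrm2, the muscarinic acetylcholine receptor M2. The hairpin of miR-139 (chr7:108623890-108623957, plus strand) lies in intron 2 of 30 of Pde2a, a phosphodiesterase of cyclic nucleotides. The hairpin of miR-326 (chr7:106700779-106700873, plus strand) lies in intron 1 of 15 of Arrb1, beta-arrestin 1, an adaptor of G protein-coupled receptors. The hairpin of miR-488 (chr1:160435756-160435864, plus strand) lies in intron 5 of 22 of Astn1, astrotactin 1, an adhesion protein of neurons that migrate along glia. The hairpin of miR-153 (chr12:118489290-118489358, plus strand) lies in intron 19 of 22 of Ptprn2, a receptor-type phosphatase family protein of dense-core vesicles. The hairpin of miR-149 (chr1:94746955-94747020, plus strand) lies in intron 1 of 8 of Gpc1, the heparan sulfate proteoglycan glypican 1. The hairpin of miR-874 (chr13:58124486-58124561, minus strand) lies in intron 7 of 13 of Klhl3, an adaptor of a ubiquitin ligase known mainly for its role in the kidney. Gpc1 and Klhl3 are not restricted to neurons, and host mRNA was not measured in these small RNA libraries, so the word neuronal could be checked for the hosts from their names alone.

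The mature sequences printed here, from RefSeq on GRCm38.p6, are shown because the seed decides which mRNAs each miRNA can pair with, and because the arms of the miR-490, miR-153 and miR-139 hairpins are compared further on. Of the 8 miRNAs, 6 had a mature sequence in that table. Capitals mark bases 2 to 8, the seed, and each sequence runs 5′ to 3′.
miR-490-3p, counted as miR-490: cAACCUGGaggacuccaugcug
miR-490-5p, the other arm: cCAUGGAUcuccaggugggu
miR-139-5p: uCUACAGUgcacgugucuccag
miR-139-3p, the other arm: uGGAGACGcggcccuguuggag
miR-326-3p, counted as miR-326: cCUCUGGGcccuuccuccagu
miR-488-3p, counted as miR-488: uUGAAAGGcuguuucuugguc
miR-153-3p, counted as miR-153: uUGCAUAGucacaaaagugauc
miR-153-5p, the other arm: gUCAUUUUugugacguugcagcu
miR-149-5p, counted as miR-149: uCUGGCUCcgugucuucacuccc
The 6 miRNAs had 6 distinct seeds, so they do not form a family. Only miR-326-3p shared its seed with another mature miRNA of the table, miR-330-5p (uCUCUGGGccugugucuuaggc). Over the first 20 bases, each of the 6 differed by at least 6 mismatches from every other of 1674 mature miRNAs. Which arm a name without a suffix stands for was read from the positions of the genome alignments. No alignment lay on the opposite strand of any of the 8 hairpins. In the 200 nt on either side of the hairpins, 5 alignments were found at miR-139 and 0 at the other hairpins.

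Tissue markers were read first. MiR-124, miR-9 and miR-128, which are abundant in neurons, averaged 29926, 27611 and 193829 CPM in FCx and 18949, 38984 and 81734 CPM in HP. From index 11 to index 7, miR-124 ran from 4091 to 57775 CPM in FCx and from 2504 to 39174 CPM in HP. CPM are the counts of a miRNA per 1000000 miRNA counts of the library. The erythroid miR-144, the myeloid miR-223 and the muscle miRNA miR-133a averaged at most 3.80 CPM in either region. MiR-451, the other erythroid marker read, was not near 0. It averaged 65.6 CPM in FCx, against 74.5 CPM in HP, and reached 139.6 and 143.1 CPM in the index 7 libraries. Of the oligodendrocyte miRNAs, miR-338-3p averaged 270 CPM in FCx, against 304 CPM in HP. MiR-219 averaged 777 and 1225 CPM, with 340 against 1539 CPM for index 7 and, in the other direction, 507 against 383 CPM for index 11. MiR-143 of vessels averaged 374 and 397 CPM. MiR-122 of liver averaged 7.05 CPM in FCx and 9.73 CPM in HP. MiR-1, a miRNA of striated muscle, was not near 0: it averaged 419 CPM in FCx, against 329 CPM in HP, and was highest in the index 7 library of each region, at 1066 and 808 CPM. The part of blood or muscle RNA in the results was not tested.

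MiR-383 dominated the group. The 8 miRNAs together made up 0.284%, 0.325% and 0.403% of the counts of the FCx libraries with index 3, 7 and 11, and 0.0895%, 0.146% and 0.108% of those of the HP libraries. Between 70.7% and 93.9% of these counts in a library were miR-383. By mean level, the order in FCx was miR-383 with 3034 CPM, miR-139-5p with 145.2, miR-488 with 83.1, miR-490 with 38.0, miR-326 with 35.8, miR-874 with 16.9, miR-153 with 11.4 and miR-149 with 7.68 CPM. In FCx, only miR-383 stood apart from its neighbour in this order, and the libraries of every other pair of neighbours overlapped. In HP the order was miR-383 with 874 CPM, miR-139-5p with 106, miR-488 with 81.5, miR-874 with 30.0, miR-326 with 29.6, miR-490 with 11.3, miR-149 with 7.04 and miR-153 with 6.65 CPM. Here all libraries of miR-383 lay above those of miR-139-5p, and all of miR-488 above those of miR-874, whereas the other neighbours overlapped. Compared within each library, miR-139-5p also lay above miR-488 in both regions, miR-874 above miR-153 in FCx and miR-490 above miR-149 in HP. Ranked by mean CPM among all listed miRNAs, miR-383 was number 27 in FCx and number 57 in HP. MiR-490 ranked 191 in FCx and 245 in HP, whereas miR-874 ranked 225 in FCx and 185 in HP.

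**Figure D1:**
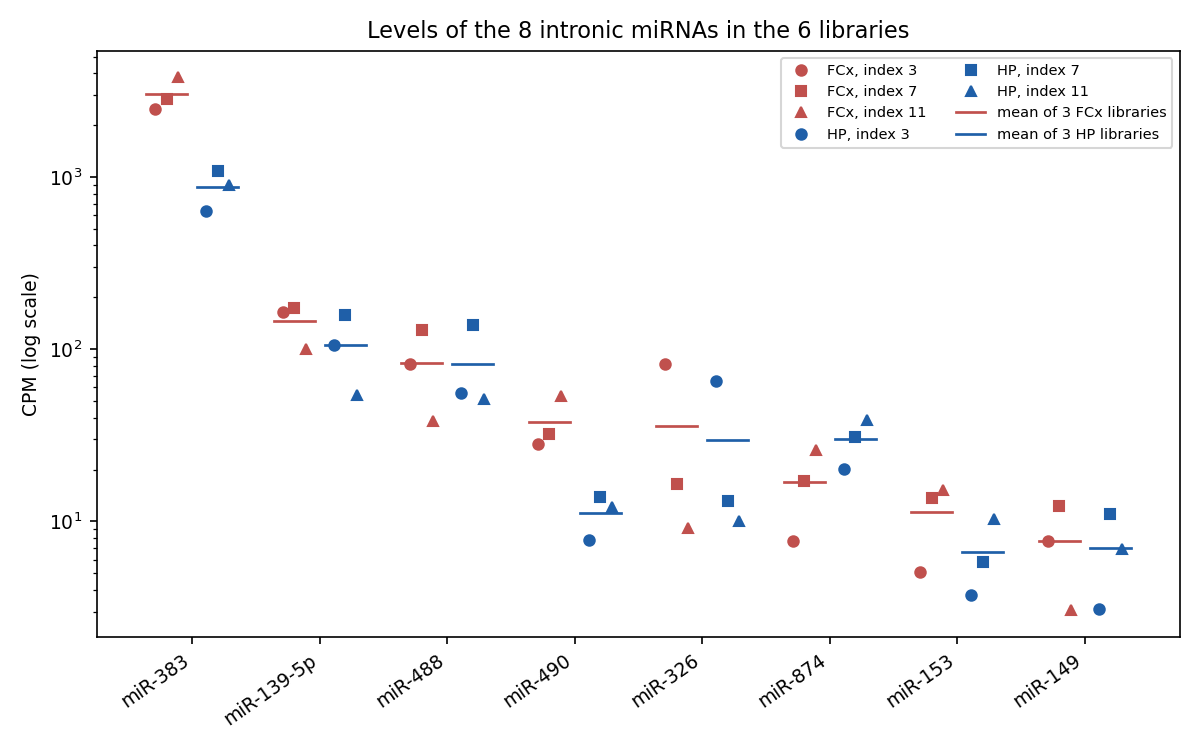
CPM (log scale) of the 8 miRNAs in each library, with FCx in red, HP in blue, a symbol for each index and a bar at the mean of the 3 libraries of a region. The FCx and HP libraries do not overlap for miR-383 and miR-490, and for miR-326 the index 3 libraries of both regions lie far above the others.

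The main question was which of the 8 differed between FCx and HP. In tissue made of many cell types, fewer cells that express a miRNA and less of it per cell cannot be told apart. The p-values and SE below measure the spread between libraries of 1 RNA pool per region, not between animals. MiR-383 and miR-490 were higher in FCx, by 2.62-fold and 2.53-fold in the quasi-likelihood test of edgeR, which used TMM normalization and the index as a block. MiR-874 was 2.23-fold higher in HP in that test. It stayed on the HP side in every alternative in which it was tested, with log2 differences from -1.23 to -0.80, but passed the threshold in none of them. The other 5 did not pass the threshold of an adjusted p of 0.05. Of all 431 miRNAs tested, 5.10% were called higher in FCx and 12.8% higher in HP, against 2 and 1 of the 8. TMM normalization placed the median log2 difference of all 431 miRNAs at -0.38, whereas scaling by library totals placed it at -0.01. With library totals 8.35% of miRNAs were called higher in FCx and 4.64% higher in HP, against 2 and 0 of the 8, and FCx was the higher region in 64.3% of all calls instead of 28.6%. The median over the 8 was -0.01 with TMM and 0.37 with library totals. Without the block 0.464% of miRNAs were called, none of the 8 among them, and each of the 8 had an adjusted p of 0.992.

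MiR-383, hosted by Sgcz, was measured at 2468, 2852 and 3783 CPM in the FCx libraries with index 3, 7 and 11. In HP it was measured at 633, 1089 and 899 CPM. The lowest FCx library thus lay above the highest HP library, and the means (± SD, n = 3) were 3034 ± 676 and 874 ± 229 CPM. Within index 3, 7 and 11 the level in FCx was 3.90, 2.62 and 4.21 times that in HP. Their 95% counting intervals were narrow, from 3.61 to 4.21, from 2.51 to 2.73 and from 3.995 to 4.43, so the ratio for index 7 lay below the others by more than counting error. The log2 difference was 1.39 with an SE of 0.29 (adjusted p = 5.2e-05 by edgeR's quasi-likelihood test), which is 1.77 above the median of all miRNAs. With library totals it was 1.81 (adjusted p = 3.4e-09), a 3.50-fold difference. It passed the threshold in all 10 alternatives with the block.

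MiR-490, hosted by Chrm2, the receptor that dampens acetylcholine release and neuronal firing, had the same direction at a far lower level. It was measured at 28.1, 32.2 and 53.6 CPM in FCx and at 7.80, 13.9 and 12.1 CPM in HP. All 3 FCx libraries lay above all 3 HP libraries. The FCx libraries held 11, 47 and 35 counts, so the ratios of 3.60, 2.31 and 4.44 within index 3, 7 and 11 had wider intervals, from 1.60 to 7.59, from 1.56 to 3.39 and from 2.79 to 6.99. None of the intervals included 1. The log2 difference was 1.34 with an SE of 0.35 (adjusted p = 0.0022 by edgeR's quasi-likelihood test), or 1.73 above the median, and 1.70 with library totals (adjusted p = 4.5e-05). With the pooled lanes alone, which held 2, 22 and 4 counts in FCx, the log2 difference was 1.00 and the call was lost (adjusted p = 0.236).

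Non-overlapping libraries with FCx higher were found for 5.57% of all 431 miRNAs and for miR-383 and miR-490 of the 8. With HP higher, they were found for 3.48% and for none of the 8. A higher level in FCx within every index was seen for 19.7% of all miRNAs and for 4 of the 8, namely miR-383, miR-490, miR-153 and miR-139-5p. A higher level in HP within every index was seen for 18.6% and for miR-874.

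**Figure D2:**
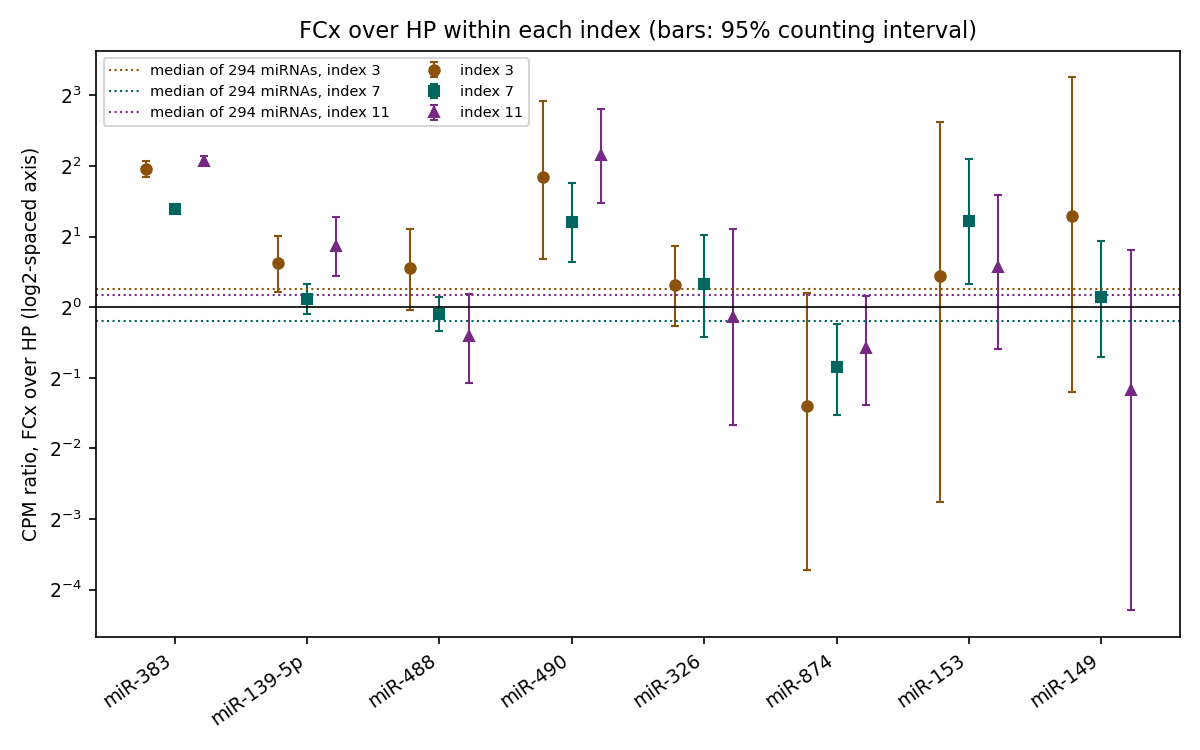
FCx over HP ratio of CPM within each index (log2-spaced axis) for the 8 miRNAs, with 95% counting intervals as bars and the median ratio of the 294 miRNAs counted in every library as a dotted line for each index. All 3 ratios of miR-383 and miR-490 lie above 2, all 3 of miR-874 lie below 1, and the ratios of miR-149 run from 2.46 to 0.44.

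MiR-139-5p and miR-326 have hosts that act downstream of receptors. MiR-139-5p, in Pde2a, which hydrolyses cAMP and cGMP, was measured at 164, 172 and 99.6 CPM in FCx and at 106, 159 and 54.5 CPM in HP. The index 11 library was the lowest in both regions, and the regions overlapped. Its ratios within index 3, 7 and 11 were 1.54, 1.09 and 1.83, all on the FCx side. The intervals for index 3, from 1.16 to 2.02, and index 11, from 1.36 to 2.42, did not include 1, and that for index 7, from 0.94 to 1.25, did. The log2 difference was 0.12 (95% interval from -0.42 to 0.66, adjusted p = 0.838) with TMM and 0.52 with library totals (adjusted p = 0.320).

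MiR-326, in Arrb1, which uncouples activated receptors from their G proteins, varied more between the indexes than between the regions. Its levels were 81.8, 16.4 and 9.20 CPM in FCx and 65.5, 13.1 and 10.1 CPM in HP for index 3, 7 and 11. The highest library of FCx was 8.89 times the lowest, and that of HP was 6.48 times the lowest, although the libraries of a region share 1 RNA pool. Within an index, the regions were close, with ratios of 1.25, 1.25 and 0.91 whose intervals all included 1. The log2 difference was -0.18 (95% interval from -0.87 to 0.51, adjusted p = 0.814), and 0.22 with library totals.

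MiR-488 and miR-153 have hosts that work in neuronal migration and vesicle secretion. MiR-488, in Astn1, was measured at 81.8, 129 and 38.3 CPM in FCx and at 55.5, 138 and 51.1 CPM in HP. Index 7 was the highest and index 11 the lowest in both regions, and the means of 83.1 ± 45.5 and 81.5 ± 49.0 CPM (SD, n = 3) were nearly equal. The ratios within index 3, 7 and 11 were 1.47, 0.94 and 0.75, on both sides of 1, and each interval included 1. The log2 difference was -0.36 (95% interval from -0.93 to 0.22, adjusted p = 0.495), and 0.013 with library totals.

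MiR-153, in Ptprn2, is known for the repression of alpha-synuclein and the amyloid precursor protein, both abundant in neurons. It was among the rarest of the 8, with 2, 20 and 10 counts in FCx and 12, 29 and 42 counts in HP. These gave 5.11, 13.7 and 15.3 CPM in FCx and 3.74, 5.85 and 10.4 CPM in HP. Index 3 was the lowest and index 11 the highest in both regions, and within each index FCx was the higher. Of the ratios of 1.37, 2.34 and 1.48, only that of index 7 had an interval without 1, from 1.25 to 4.28. The log2 difference of 0.54 (95% interval from -0.41 to 1.49) did not pass the test (adjusted p = 0.532). It was 1.23 without replicate 3 (index 11) and 0.090 without replicate 2 (index 7), and passed in neither. On the pooled lanes alone, its mean in FCx was 18.4 CPM instead of 11.4 CPM.

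MiR-149 and miR-874 have hosts with broad expression. MiR-149, in Gpc1, was the rarest in FCx, with 3, 18 and 2 counts, or 7.66, 12.3 and 3.07 CPM. In HP it had 10, 55 and 28 counts, or 3.12, 11.1 and 6.91 CPM. The regions overlapped almost entirely, and the ratio within an index ran from 2.46 for index 3 over 1.11 for index 7 to 0.44 for index 11, each with an interval that included 1. The log2 difference was -0.14 with a 95% interval from -1.19 to 0.90 (adjusted p = 0.905), which includes a 2-fold difference towards HP.

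MiR-874, in Klhl3, was the only one of the 8 with a higher level in HP within every index. It was measured at 7.66, 17.1 and 26.1 CPM in FCx and at 20.3, 30.9 and 38.7 CPM in HP. The order of the indexes was the same in both regions, with index 3 lowest and index 11 highest, and the highest FCx library exceeded the lowest HP library. HP was 2.65, 1.81 and 1.49 times FCx within index 3, 7 and 11, and only the interval for index 7, from 1.18 to 2.88, excluded 1. FCx index 3 held 3 counts. The log2 difference of -1.16 with an SE of 0.36 passed the test with TMM (adjusted p = 0.0116), and was 0.77 further towards HP than the median of all miRNAs. With library totals it was -0.84 (adjusted p = 0.146), and the adjusted p ranged from 0.0592 to 0.284 over the 9 alternatives with the block in which miR-874 was tested.

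The level differed between the indexes for all 8 miRNAs in the fit with TMM, where the test of the index coefficients gave adjusted p-values from 6.2e-09 for miR-326 to 0.0465 for miR-149 by edgeR's quasi-likelihood test. Of all miRNAs, 61.3% passed this test. With library totals 60.8% passed, and 3 of the 8, miR-488, miR-139-5p and miR-326. For 6 of the 8 (75.0%), the index with the highest level was the same in FCx and HP, and so it was for 75.5% of the 294 miRNAs counted in every library. The exceptions were miR-383 and miR-490, which were highest with index 11 in FCx and with index 7 in HP. For 7 of the 8 the lowest index was shared, miR-149 being the exception. The share of all miRNAs with a shared lowest index was not counted.

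For the miR-139 hairpin both arms are listed, and their counts were furthest apart in the index 7 libraries. Whether the index sets this was not tested. MiR-139-3p, the other arm, was measured at 396, 26.7 and 153 CPM in FCx and at 101, 19.8 and 80.9 CPM in HP for index 3, 7 and 11. Index 7 was the lowest for the 3p arm in both regions, and the highest for the 5p arm. The counts of the 5p arm were 0.413, 6.46 and 0.650 times those of the 3p arm in FCx, and 1.05, 8.03 and 0.674 times in HP. In the genome alignments the 5p share of the hairpin was 82.4% (95% Wilson interval from 76.9% to 86.8%) in FCx and 86.4% (83.8% to 88.6%) in HP for index 7. It was 27.6% (22.1% to 34.0%) and 45.7% (41.8% to 49.7%) for index 3, and 33.8% (26.8% to 41.5%) and 36.1% (32.1% to 40.3%) for index 11. Which arm was the more frequent thus changed between libraries of the same RNA. MiR-139-3p had a log2 difference of 0.70 between FCx and HP with TMM (adjusted p = 0.0689) and of 1.14 with library totals (adjusted p = 0.0038). It passed in 7 of 10 alternatives with the block, and was 0.43 without replicate 1 (index 3, adjusted p = 0.616) and 1.25 without replicate 3 (index 11, adjusted p = 0.0012).

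Of the other arms, the count files listed only miR-139-3p and miR-488*. MiR-488* had 0 counts in each FCx library, and 3, 3 and 8 counts in HP. At 3 counts, the level that a count of 0 allows, the FCx libraries could hold up to 7.66, 2.05 and 4.60 CPM, so no difference was detectable. The genome alignments showed 2 further arms with many reads. The 5p arm of the miR-490 hairpin, printed above, had 2, 135 and 2 alignments in FCx and 2, 186 and 3 in HP for index 3, 7 and 11. Of these 330 alignments 97.3% came from the index 7 libraries, which hold 40.8% of all alignments. The 3p arm, the one counted as miR-490, had 8, 45 and 33 alignments in FCx and 25, 66 and 49 in HP. Over alignments of all lengths, the 5p arm was the more frequent one in both index 7 libraries, at 75.0% (68.2% to 80.8%) in FCx and 73.8% (68.1% to 78.9%) in HP. In the other 4 libraries it held at most 2 of 10 alignments. Many of its index 7 alignments were short, with 21 of 16 nt, 72 of 17 nt and 42 of 22 nt in FCx. In HP these were 38, 70 and 76. The 3p arm had only alignments of 22 nt there, with 43 in FCx and 63 in HP at its commonest start. The lead of the 5p arm thus rested largely on short alignments.

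The 5p arm of the miR-153 hairpin had 2, 17 and 3 alignments in FCx and 12, 190 and 4 in HP. The HP library with index 7 stood apart, and the index 7 libraries together held 90.8% of the 228 alignments. Its start also varied. In the HP index 7 library 109 of the 190 alignments began at the first base of miR-153-5p as printed, and 80 (42.1%, 95% Wilson interval from 35.3% to 49.2%) began 1 base downstream, which gives the seed in capitals in guCAUUUUUgugacguugcagcu. The downstream start was the commoner one in 4 of the other 5 libraries, with 2 of 2, 10 of 17 and 3 of 3 alignments in FCx for index 3, 7 and 11 and 9 of 12 in HP for index 3. In HP with index 11 it took 0 of 4. The 3p arm, counted as miR-153, had 2, 19 and 10 alignments in FCx and 13, 29 and 41 in HP, and 42.1% of these 114 alignments came from the index 7 libraries.

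**Figure D3:**
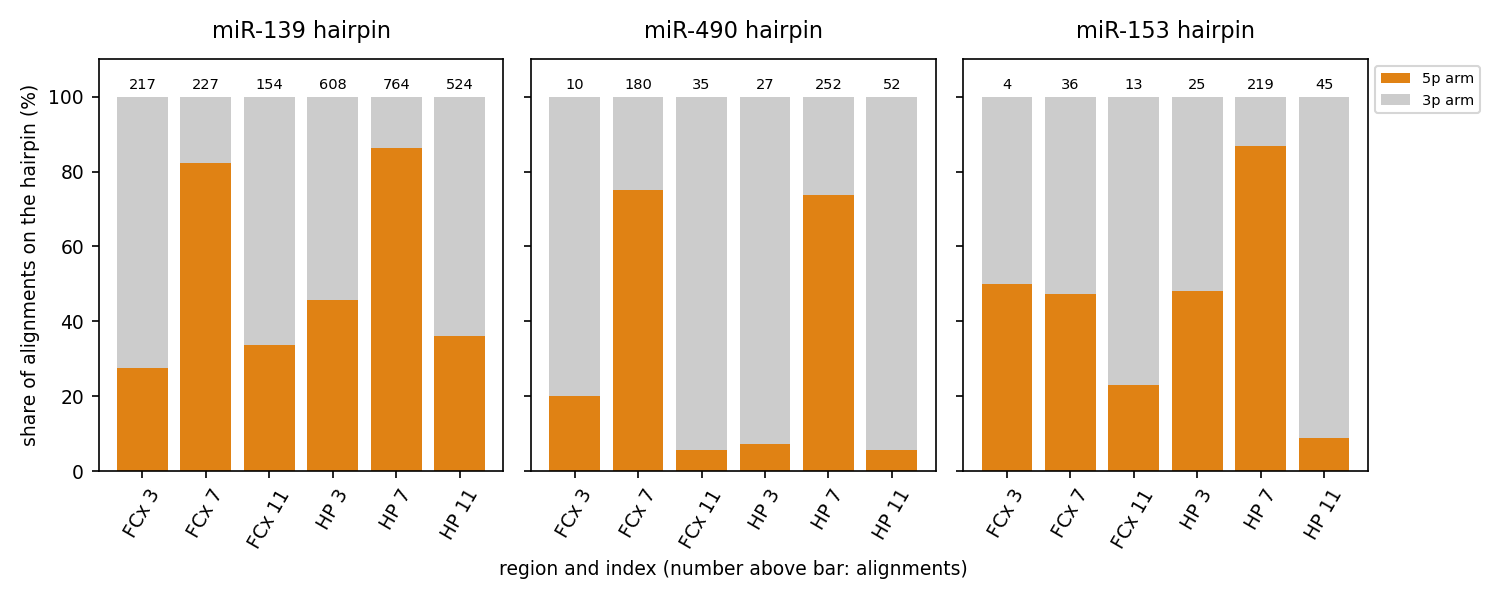
Share (%) of the alignments on the miR-139, miR-490 and miR-153 hairpins that lie on the 5p arm (orange) and the 3p arm (grey) in each library, with the number of alignments above each bar. The 5p arm takes most of the alignments of miR-139 and miR-490 in both index 7 libraries and less than 50% in the others, and that of miR-153 does so in the HP index 7 library alone. Alignments of all lengths are included, and many on the 5p arm of miR-490 have 16 or 17 nt.

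On each of the remaining hairpins most alignments lay on a single arm, where an alignment was given to the 5p or 3p side by its start. MiR-383 had 15634 alignments on the 5p arm and 0 on the 3p arm, and a count of 0 allows 3. MiR-488 had 1079 on the 3p and 12 on the 5p arm, and miR-874 had 422 on the 3p and 2 on the 5p arm. MiR-326 had 302 on the 3p arm and 8 on the 5p side, of which only 2 began at the annotated start of miR-326-5p. MiR-149 had 109 on the 5p and 15 (12.1%) on the 3p arm.

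MiR-383 had reads enough for its 5′ end to be compared. Nearly all of its alignments fell on 2 starts, the commonest one and the base upstream of it, and these forms have different seeds. The upstream start took 36.9% (95% Wilson interval from 33.7% to 40.2%), 41.8% (40.2% to 43.5%) and 37.1% (35.1% to 39.1%) of the alignments in FCx with index 3, 7 and 11. In HP it took 41.2% (38.9% to 43.6%), 48.6% (47.1% to 50.1%) and 48.0% (46.3% to 49.7%). The share was higher in HP within every index, by 4.35, 6.78 and 10.9 percentage points, although the regions overlapped across indexes. Alignments of 16 or 17 nt also took a larger share of miR-383 in HP, with 34.3%, 42.0% and 28.5% against 27.3%, 33.3% and 18.5% in FCx. Among alignments of 18 to 26 nt, the upstream start took 23.3%, 25.9% and 28.4% in the FCx libraries, against 24.4%, 29.5% and 37.0% in the HP libraries, and the differences were 1.09, 3.65 and 8.66 points. An exact permutation test of 3 libraries against 3 that ignores the index cannot give a p under 0.1, and these shares were not tested. The 3′ ends were not compared, since no alignment was longer than 23 nt and 83.6% of all alignments had exactly 22 nt.

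**Figure D4:**
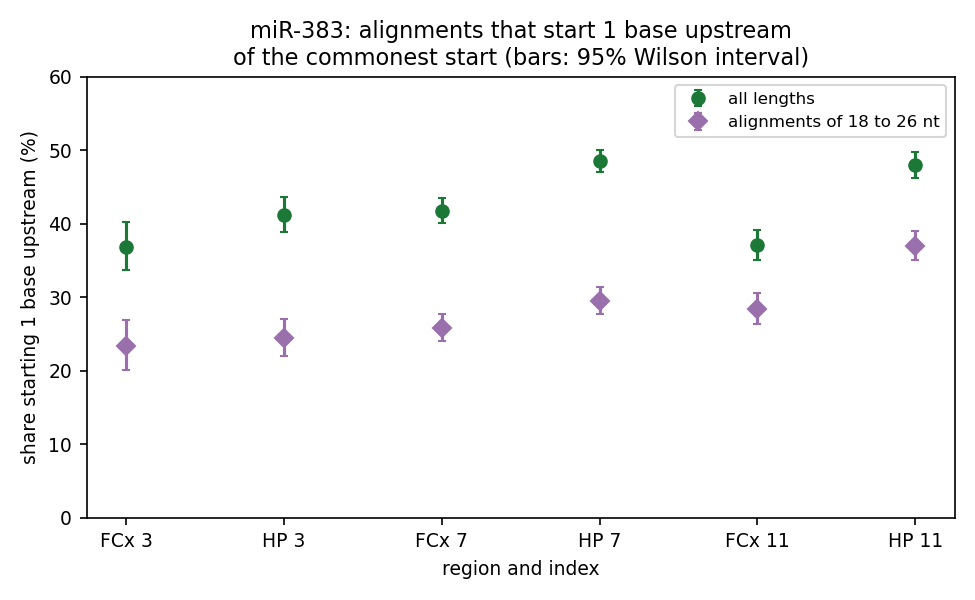
Share (%) of miR-383 alignments that start 1 base upstream of the commonest start, by region and index, for all lengths (circles) and for alignments of 18 to 26 nt (diamonds), with 95% Wilson intervals as bars. Within each index the HP share lies above the FCx share, and the difference is smallest for index 3.

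Other miRNAs whose levels followed those of the 8 most closely were searched for among the 251 others that averaged 10 CPM or more, by Pearson's r of log2(CPM + 1) over the 6 libraries. The r values are descriptions over libraries that share RNA pools, indexes and depth. MiR-383 and miR-490 had the same nearest miRNAs, miR-182 (r of 0.975 and 0.940) and let-7d* (0.968 and 0.935). MiR-182, of the sensory miR-183 cluster, was measured at 40.9, 76.6 and 56.7 CPM in FCx and at 0, 1.41 and 0.247 CPM in HP. MiR-326 was nearest to miR-324-5p (0.988), which had 296, 15.7 and 6.13 CPM in FCx for index 3, 7 and 11 and fell in the same order in HP. MiR-139-5p was nearest to miR-434-5p (0.995) and miR-30a (0.986), miR-488 to miR-140* (0.973) and miR-378 (0.968), and miR-149 to miR-136 (0.935). MiR-874 was nearest to miR-148a (0.932), and miR-153 to miR-181a-1* (0.894), the lowest value of the 8.

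A list of 15 other miRNAs in introns of genes expressed in brain was set beside the 8, and all 15 were listed and lay in an intron on the strand of the host. With TMM, 0 of the 15 were called higher in FCx and 5 higher in HP (miR-218, miR-204, miR-598, miR-448 and miR-361), beside 5.10% and 12.8% of all miRNAs, and their median log2 difference was -0.50, against -0.38 for all miRNAs. With library totals 2 were called higher in FCx (miR-128 and miR-33) and 2 higher in HP (miR-218 and miR-448), beside 8.35% and 4.64% of all, with a median of -0.13. MiR-218, in introns of Slit2 and Slit3, which encode axon guidance cues, had a log2 difference of -1.75 with TMM (adjusted p = 2.3e-07) and -1.33 with library totals. MiR-204, in the channel gene Trpm3, had -1.49 with TMM (adjusted p = 0.000898) and -0.93 with library totals (adjusted p = 0.0883). MiR-598 had FCx over HP ratios of 1.10, 0.24 and 0.99 for index 3, 7 and 11, so its call rested on index 7. It did not pass with library totals (adjusted p = 0.153). Over the alternatives with the block, miR-218 passed in 10 of 10, miR-204 in 5 of 9 and miR-598 in 2 of 10, and miR-448 and miR-361 passed in few. On the FCx side miR-128, in R3hdm1 and Arpp21, had 0.86 with TMM (adjusted p = 0.0631) and 1.29 with library totals (adjusted p = 3.8e-15). The 1.39 of miR-383 and the 1.34 of miR-490 were larger than any of the 15 log2 differences towards FCx under TMM. The difference between the 8 and the 15 was not tested.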

How the data were processed

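Bowtie, with mismatches allowed, was run by the authors against NCBIM37 and the mature miRNAs of miRBase. Its input was reads sorted by index, from which the index and the 3′ adaptor had been cut. By their account, very short reads, homopolymers, dimers of the adaptors and reads from ribosomal or mitochondrial RNA had been taken out. The alignments nevertheless ran from 4 to 23 nt, with 1.44% of them at 12 nt, and all lengths were kept in the totals. The deposited count is the raw number of reads that the authors assigned to a mature miRNA in a lane file. The alignment files of the authors give, in other deposited columns, the start and end of each alignment, and their alignment score was not used.

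The 12 lane files were summed to 6 libraries. EdgeR 4.0.16 in R 4.3.3 was used with TMM, the quasi-likelihood test, Benjamini-Hochberg adjustment and the index as a block, on the 431 miRNAs whose counts summed to 2 or more in a region; every adjusted p comes from it unless another test is named. The study's own test, edgeR's exact test without a block, was an alternative. The labels give replicate number and index together. With log2 CPM centred within regions, the FCx and the HP library of an index correlated across the 431 miRNAs with r of 0.796, 0.846 and 0.854, so the index pairs them. Libraries of different indexes gave -0.618 to -0.226. The centring itself makes these negative when the others are positive, so they add nothing to the pairing. TMM factors were 1.58, 0.903 and 1.08 in FCx and 0.938, 1.02 and 0.679 in HP for index 3, 7 and 11. On counts simulated for this comparison over 431 miRNAs with 200 changed, the test recovered 37% at 2-fold and 74% at 4-fold. Median false calls were 4 and 8. In the data only 77 were called, and recovery was not split by level, so these shares need not hold for the rarer of the 8. Alternatives were library totals, DESeq2 1.42.0 (size factors or its test), no filter, at least 10 counts in every library, either lane alone, each replicate left out, and no block.

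Ratios within an index have 95% counting intervals and shares have Wilson intervals, and 0 counts were read as up to 3; all cover counting error only. Intervals of log2 differences are from the SE, which covers the spread between libraries but not between animals. Python 3.11.15, pandas 2.3.3, statsmodels 0.14.6 and matplotlib 3.10.9 were used. Named were the 8 miRNAs, other arms of their hairpins, a list of 15 intronic miRNAs (values for at most 3 in each direction) and the 2 miRNAs most like each. The miRNAs and lists were chosen with earlier results of these data known.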

Additional observations from a re-analysis of the deposited data

Results flagged for a closer look

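Reads on 3 hairpin arms that the count files do not list appeared in the genome alignments, each with more alignments at the annotated start of the arm than the 3 that a count of 0 allows. The 5p arm of miR-490 had 330 alignments over the 6 libraries, many of them of 16 or 17 nt. The 5p arm of miR-153 had 228, and the 3p arm of miR-149 had 15. Most of those of miR-490 (97.3%) and miR-153 (90.8%) were in the index 7 libraries, and whether the index sets this was not tested. Groups of 3 libraries were not tested for outliers.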

How the results depend on the processing

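MiR-383 passed the test in 10 of 10 alternatives with the replicate block and miR-490 in 9 of 10, whereas miR-874 passed in 0 of 9. The number of the 8 called higher in HP was 0 instead of 1 in every alternative, and the number higher in FCx was 1 instead of 2 with the pooled lanes only. Without the replicate block 0 of the 8 were called in either direction with TMM, with library totals and by the exact test of edgeR, which also took the 12 lane files as its units. With TMM 2 of all miRNAs were higher in FCx and 0 in HP (22 and 55 with the block), and with library totals 2 and 0 (36 and 20 with the block). The exact test called 13 and 1. At an unadjusted p under 0.05, 0, 1 and 2 of the 8 passed in these fits, beside 17, 17 and 32 of all 431 miRNAs. With the block, 13 miRNAs were higher in FCx and 10 in HP with at least 10 counts in every library, and the number higher in HP was 26 with DESeq2 size factors, 14 by DESeq2's test, 13 with no filter and 31 with the pooled lanes. Leaving out 1 replicate gave 13 to 24 higher in HP and none of the 8 among them.

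The index test called 264 miRNAs, 139 with at least 10 counts in every library and 160 to 211 with a replicate left out. Of the 8 it called 3 with library totals (262 of all 431), 5 by DESeq2's test (232 of 431), 3 of the 4 tested with at least 10 counts in every library (139 of 173), 3 with the pooled lanes (214 of 388) and 2 to 5 with a replicate left out. The signs of 3 uncalled log2 differences turned towards FCx. MiR-488 was 0.013 with library totals, from -0.42 to 0.24 without 1 replicate (0.24 without replicate 3) and 0.031 with library totals and no block. MiR-149 was 0.061 with library totals, 0.10 with DESeq2 size factors, 0.023 by DESeq2's test, 0.062 with no filter, 0.53 with pooled lanes, from -0.48 to 0.57 without 1 replicate (0.57 without replicate 3), 0.15 with library totals and no block, and 0.32 by the exact test. MiR-326 was 0.22 with library totals, 0.091 with DESeq2 size factors, 0.070 by DESeq2's test, 0.10 with no filter, 0.14 with individual lanes, from -0.17 to 0.30 without 1 replicate (0.015 without replicate 1 and 0.30 without replicate 3), 0.25 with library totals and no block, and 0.15 by the exact test. The cause was not tested. Depth limits the FCx values of miR-153, miR-149 and miR-874, each with 3 counts or fewer in at least 1 library.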
